A study of Mus musculus with 41 samples.

Results

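Transcripts of 8 complement genes, C1qa, C1qb, C1qc, C2, C3, C4b, C3ar1 and C5ar1, were followed in microglia sorted from mouse cerebellum. They were taken by symbol from a table of 24015 genes, and all 8 were found. The study followed Niemann-Pick type C disease, a lysosomal lipid storage disorder, in mice of strain BALB/cNctr-Npc1m1N/J (NPC), which carry a mutation of Npc1, beside balb/c mice (WT). Untreated mice of both genotypes were taken at 1, 3, 6 and 9 weeks, with 4 libraries in each group apart from NPC at 9 weeks, which had 3. A separate set of NPC mice of 9 weeks had received PLX5622, an inhibitor of the CSF1 receptor that depletes microglia, or were labelled control, with 5 mice in each arm. Neither arm had WT mice of its own, and the dose and duration of PLX5622 are not given in the sources used here. The Npc1 mutation was present in every cell of the NPC mice, so no comparison separates microglia from the tissue around them. All libraries came from cells sorted as CD11b+Tmem119+, so the cells that remained in the PLX5622 arm were those that passed the same gate. The analysis asked how the complement genes differed with genotype, age and PLX5622.

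Complement is a cascade of secreted proteins that marks targets for removal. In the classical pathway, C1q, built from A, B and C chains, binds a target, and its proteases cleave C4 and C2, which together form the enzyme that cleaves C3. C3 fragments coat the target and the small fragments of C3 and C5 act on the receptors C3ar1 and C5ar1. Microglia are the main source of C1q in the brain, where C1q and C3 are known for tagging synapses during development.

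Npc1 ranged from 291 to 787 normalized counts over the NPC libraries and from 2606 to 7386 over the WT libraries, so every library matched its genotype label. A normalized count is a gene's read count divided by a scaling factor of its library. Libraries held 23159093 to 40509603 gene-assigned reads. The sorting marker Tmem119 was high in all libraries (52430 to 318571 over the untreated groups of both genotypes), and it was lower in NPC than in WT at 3, 6 and 9 weeks (log2 change -0.53, -0.80 and -1.11, limma adjusted p = 0.0163, 6.57e-04 and 2.00e-05). The NPC library of 3 weeks called replicate C stood farthest from its group (correlation of log2 values with the mean of the rest of its group 0.929, against 0.954 or above in the other 40 libraries), and the members' changes between genotypes at 3 weeks are given with and without it. Gfap, an astrocyte marker, was 31 to 156 in WT libraries of all ages and rose in NPC libraries at 3, 6 and 9 weeks by 2.26, 3.60 and 4.12 on the log2 scale (limma adjusted p = 0.00627, 4.75e-05 and 1.72e-05). The summed level of the 10 astrocyte markers was 8362 to 10830 in WT and 9236 to 15140 in NPC libraries of these ages. In bulk RNA, fewer cells of a type and less RNA per cell cannot be told apart.

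The members covered a wide range of abundance. Divided by exon length, the order in each WT group from 3 weeks on was C1qb, C1qa, C1qc, C3ar1, C5ar1, C4b, C3 and C2. In WT at 1 week and in the 4 untreated NPC groups the order was C1qb, C1qc, C1qa, C3ar1, C5ar1, C2, C4b and C3. Both 9-week arms differed from it only in that C3 stood above C4b. C1qa and C1qc were close in WT at 3 weeks, at 101765 and 100881 normalized counts per kilobase. In WT at 3 weeks, C1qb had a level of 140233 normalized counts per kilobase against 2471 for C3ar1, 492.6 for C5ar1, 40.9 for C4b, 19.2 for C3 and 10.4 for C2. Summed, the C1q chains made up 1.07 to 2.34% of all normalized counts of a library, and C1qb ranked between 7 and 18 among all genes. C2, C3 and C4b had a median rank between 5742 and 7582. Ordered by group mean, every member was highest in an NPC group, but C5ar1 only through the PLX5622 arm. The next C5ar1 means were those of WT at 9 weeks and 1 week (2370 and 2325), above every untreated NPC group. For C1qb all NPC groups from 3 weeks on came before all WT groups, and the 9-week NPC libraries did not overlap those of WT at 6 weeks, the next group down, while all other neighbours in its order overlapped. For C2 the 1 gap between neighbouring groups lay between WT at 1 week and WT at 9 weeks. For C3ar1 there were gaps below the PLX5622 arm, below NPC at 9 weeks and below NPC at 1 week. For C1qa, C1qc, C4b, C3 and C5ar1 the libraries of neighbouring groups overlapped throughout.

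**Figure D1:**
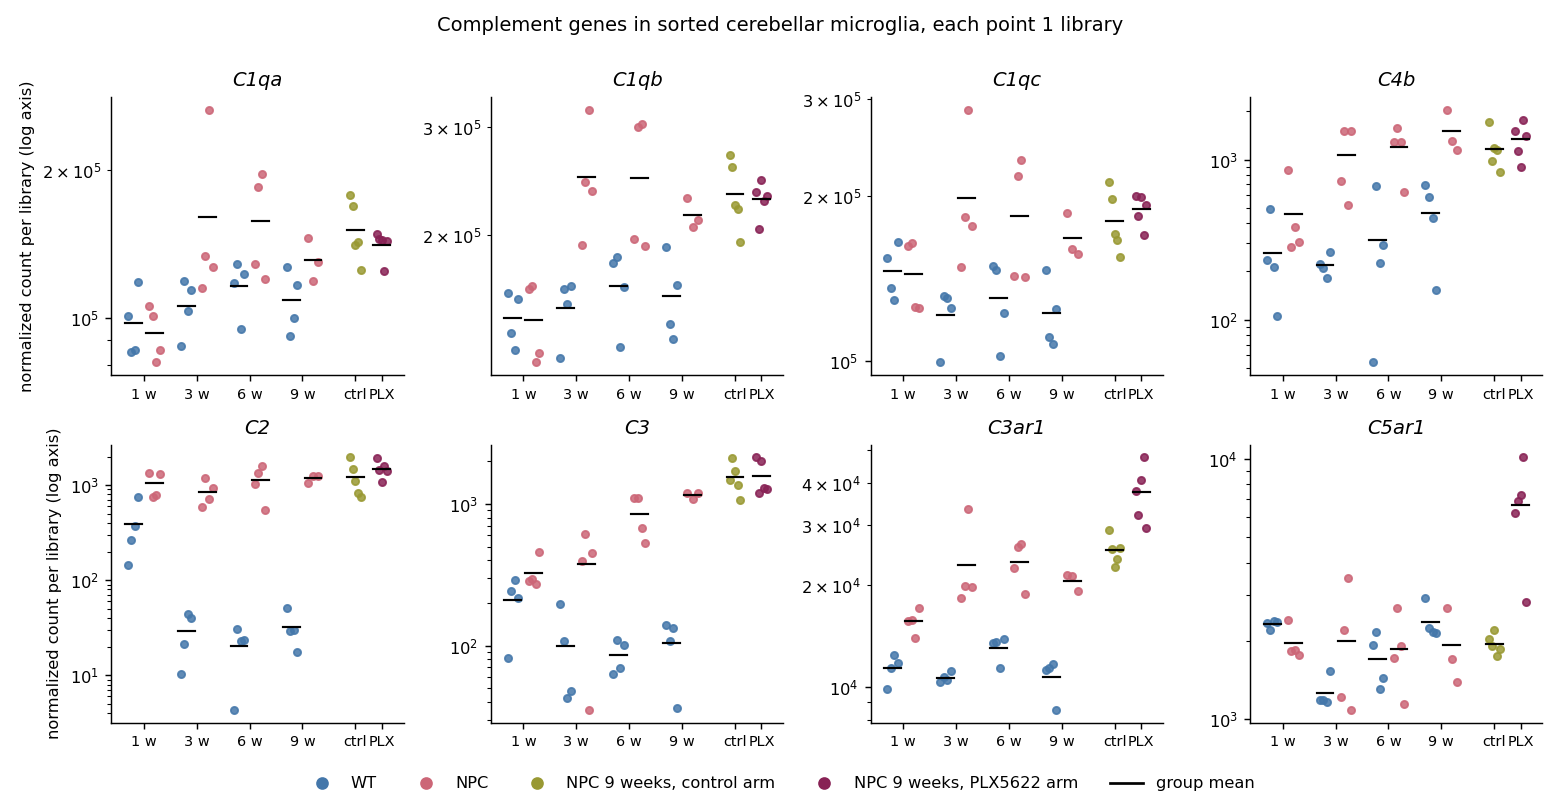
Normalized count of each complement gene (log axis) in each of the 41 libraries, by age with WT and NPC side by side, and in the 9-week control (ctrl) and PLX5622 (PLX) arms. Points are libraries and bars are group means. C2 and C3 separate the genotypes from 6 weeks on with no overlap, whereas C5ar1 is high in 4 of 5 PLX5622 libraries.

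A gene counts as changed where limma's adjusted p over all genes tested was under 0.05. Whether groups overlapped describes the members' values only. The share of all genes without overlap is not given here, so a lack of overlap is not read as unusual. At 1 week 0 of 8 members differed between NPC and WT by limma, against 0.876% of all 14046 tested genes higher and 0.577% lower. Unadjusted p was under 0.05 for 2 members, C2 and C3ar1, and 0 were called by edgeR and 1, C2, by DESeq2. At 3 weeks 7 of 8 were higher, all but C5ar1, with 14.3% of all genes higher and 12.6% lower. At 6 weeks 5 of 8 were higher, C1qb, C4b, C2, C3 and C3ar1, with 8.76% of all genes higher and 6.5% lower. At 9 weeks 4 of 8 were higher, C4b, C2, C3 and C3ar1, with 11.2% of all genes higher and 7.77% lower. None of the 8 was lower at any of these ages. The median log2 change of the members was 0.22, 0.87, 0.70 and 0.71 at 1, 3, 6 and 9 weeks, against 0.0027, -0.038, -0.022 and 0.027 over all genes tested.

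Markers of other cells also differed between the genotypes beside these counts. Of 7 markers of border-associated macrophages, resident macrophages outside the brain parenchyma, 3 were higher in NPC at 3 weeks, 2 higher and 2 lower at 6 weeks and 3 higher at 9 weeks, and their sum at 3 weeks was 1156 to 1501 in NPC against 353 to 688 in WT. Of 10 monocyte and neutrophil markers, 2 were higher and 1 lower at 3 weeks (median log2 change 2.21, sums 574 to 1036 in NPC and 433 to 588 in WT), and 1 was higher and 1 lower at 6 and at 9 weeks. Of 8 microglia markers, 5, 3 and 4 were lower at 3, 6 and 9 weeks, and 1, 1 and 0 higher. The part of these cells in the members' changes was not tested.

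The change between genotypes grew from 1 to 3 weeks for 1 member, C2, with 1.06% of all genes called in that test, and for 0 members from 3 to 6 or from 6 to 9 weeks, where 0% and 0% of all genes were called by limma. In those later tests 0 and 0 members had an unadjusted p under 0.05, and edgeR and DESeq2 called 0 members. Over all genes, 1237 and 628 had an unadjusted limma p under 0.05, edgeR called 0 in both and DESeq2 1 and 20. With age in WT, 2 members, C2 and C5ar1, were lower at 3 weeks than at 1 week, where 34.1% of all genes changed. From 3 to 6 and from 6 to 9 weeks 0 members changed in WT by limma, edgeR or DESeq2, with 0.057% and 0.00712% of all genes called and 0 and 1 members at an unadjusted p under 0.05. In NPC, 3 members, C1qa, C1qb and C3ar1, were higher at 3 weeks than at 1 week, where 25% of all genes changed. From 3 to 6 and 6 to 9 weeks 0 members changed in NPC by any of these tools, with 0.228% and 0.37% of all genes called and 1 (C3) and 0 members at an unadjusted p under 0.05.

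**Figure D2:**
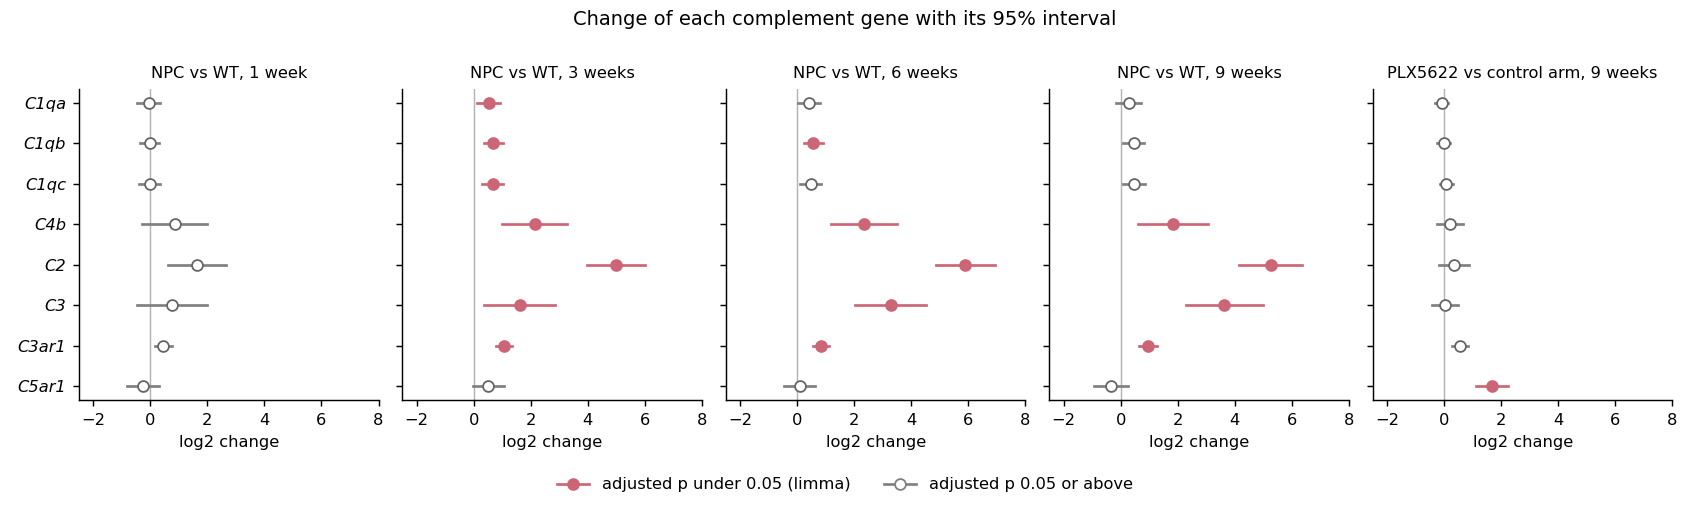
The log2 change of each complement gene between NPC and WT at each age and between the PLX5622 and control arms, with its 95% interval. Filled points have a limma adjusted p under 0.05. C2 lies farthest to the right at 3, 6 and 9 weeks, with changes of 4.98, 5.89 and 5.26.

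C1qa, C1qb and C1qc encode the chains of C1q, the recognition molecule of the classical pathway. At 1 week they did not pass the test between genotypes, with means of 145600 ± 22100 normalized counts of C1qb in NPC and 147000 ± 14900 in WT (SD, n = 4 each). At 3 weeks the WT libraries had 126294, 163779, 154466 and 165755 normalized counts of C1qb and the NPC libraries 192976, 244695, 320262 and 236473. The groups did not overlap, and replicate C was the highest NPC library. The change was 1.61-fold (95% interval 1.28 to 2.03, limma adjusted p = 0.00308). C1qc was 1.59-fold higher at that age (1.24 to 2.06, limma adjusted p = 0.00775), and C1qa 1.43-fold (1.09 to 1.89, limma adjusted p = 0.0473) with groups that overlapped. Without NPC replicate C of 3 weeks the changes were 1.47-fold for C1qb, 1.39-fold for C1qc and 1.19-fold for C1qa, with limma adjusted p of 0.0158, 0.0469 and 0.307. The C1qa call was lost in 25 of 43 alternatives, among them the fit without WT replicate A of 3 weeks (limma adjusted p = 0.145), so it is a borderline value. The C1qc call was lost in 1 of 43, the fit of the compared groups alone (limma adjusted p = 0.0868).

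At 6 weeks the NPC libraries had 197233, 300480, 303693 and 192132 of C1qb and the WT libraries 180445, 184570, 131771 and 165093. All NPC libraries were above all WT libraries, and NPC replicates B and C were well above A and D. Their summed astrocyte markers were also the highest of the group, at 15140 and 14719 against 11542 and 10048. So were their summed oligodendrocyte markers, at 19784 and 17038 against 9145 and 6796. C1qb was 1.48-fold higher (1.17 to 1.86, limma adjusted p = 0.0168). The call was lost without NPC replicates B and C together (1.19-fold, limma adjusted p = 0.534), without either alone (0.0867 and 0.0886), without WT replicate C (0.0764), with array weights (0.0738), in a fit of the compared groups alone (0.0623) and with the astrocyte score as a covariate (0.146). The part of the astrocyte and oligodendrocyte signals in the C1q change of 6 weeks was not tested beyond these values. C1qc was 1.39-fold and C1qa 1.33-fold at 6 weeks, both short of the threshold (limma adjusted p = 0.0705 and 0.157). C1qc passed at 0.0359 and 0.0314 without NPC replicate A or D of 6 weeks, and both passed (0.0219 and 0.0373) without NPC replicate C of 3 weeks, which enters through the spread shared by all groups. C1qc passed in 6 of 44 alternatives, among them rescaling to the same total (0.0303), quantile normalization (0.00252) and DESeq2 (0.0379).

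At 9 weeks C1qb had 229847, 206628 and 211765 in the NPC libraries and 191324, 143330, 135702 and 166060 in WT. The groups of C1qb and of C1qc did not overlap, but the changes of 1.37-fold and 1.38-fold missed the threshold (limma adjusted p = 0.0713 and 0.0956), and C1qa was at 1.21-fold (0.90 to 1.63, limma adjusted p = 0.401). Without NPC replicate C of 3 weeks C1qb and C1qc passed (0.0339 and 0.0355), as C1qb did without WT replicate A of 9 weeks (0.0425). Both also passed with quantile normalization (0.0423 and 2.73e-04), array weights (0.00499 and 0.00593) and a fit of the compared groups alone (0.00685 and 0.00594). In NPC mice the step from 1 to 3 weeks was 1.70-fold for C1qb and 1.63-fold for C1qa (limma adjusted p = 8.27e-04 and 0.00816), and 1.35-fold for C1qc (limma adjusted p = 0.0793). Without NPC replicate C of 3 weeks the steps of C1qb and C1qa were 1.55-fold and 1.35-fold (limma adjusted p = 0.00332 and 0.0398). The C1qa step was lost when the fit held only those groups (0.118).

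The 3 genes neighbour each other and moved together from library to library. Over the 41 libraries the correlation of log2 values was 0.938 between C1qa and C1qb, 0.907 between C1qb and C1qc and 0.867 between C1qa and C1qc, and with group means removed it was 0.891, 0.961 and 0.939. The promoter sequences of C1qb and C1qc are shown because these genes moved together. They are the 250 bases before the start, from RefSeq on GRCm38.p6, read on the gene's strand, at chr4:136886201-136886450 and chr4:136892915-136893164, both on the minus strand. Of the 8 members, 5 had an entry in the promoter table. Capitals mark GAGGAA on either strand, the core of the motif bound by PU.1, a transcription factor of macrophages.
C1qb: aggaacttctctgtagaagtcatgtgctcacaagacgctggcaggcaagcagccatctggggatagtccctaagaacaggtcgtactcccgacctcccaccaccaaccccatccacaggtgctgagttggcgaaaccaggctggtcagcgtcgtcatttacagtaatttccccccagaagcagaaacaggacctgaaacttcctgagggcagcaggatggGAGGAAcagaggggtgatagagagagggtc
C1qc: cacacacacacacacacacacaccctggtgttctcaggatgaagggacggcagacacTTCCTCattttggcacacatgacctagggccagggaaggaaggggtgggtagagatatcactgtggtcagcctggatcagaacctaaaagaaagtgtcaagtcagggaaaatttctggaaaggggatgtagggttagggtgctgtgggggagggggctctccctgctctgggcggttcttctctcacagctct
Each held 1 match, at 30 bases before the start in C1qb and 193 before it in C1qc, and 23.4% of the 32536 distinct promoter windows of this length held at least 1. A match is a description of the letters only.

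The proportions of the C1q chains were described library by library. Per kilobase of exon, C1qb made up 36.6 to 44.7% of the C1q sum over all libraries, C1qa 25.1 to 32.4% and C1qc 27.4 to 35.4%. C1qc had a share of 34.6 ± 0.31% in WT and 34.8 ± 0.58% in NPC at 1 week (SD, n = 4 each), and its group means lay between 28.6 and 31.2% in all later groups. No 1-week library overlapped a later library in this share, in either genotype, which describes these values only. The summed border-associated macrophage markers also differed between these ages. They were 4390 to 9133 in WT at 1 week and 353 to 688 at 3 weeks, and 7301 to 8384 and 1156 to 1501 in NPC. Their part in the share was not tested. The share was computed from the same values as the tests above and was not tested on its own.

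**Figure D3:**
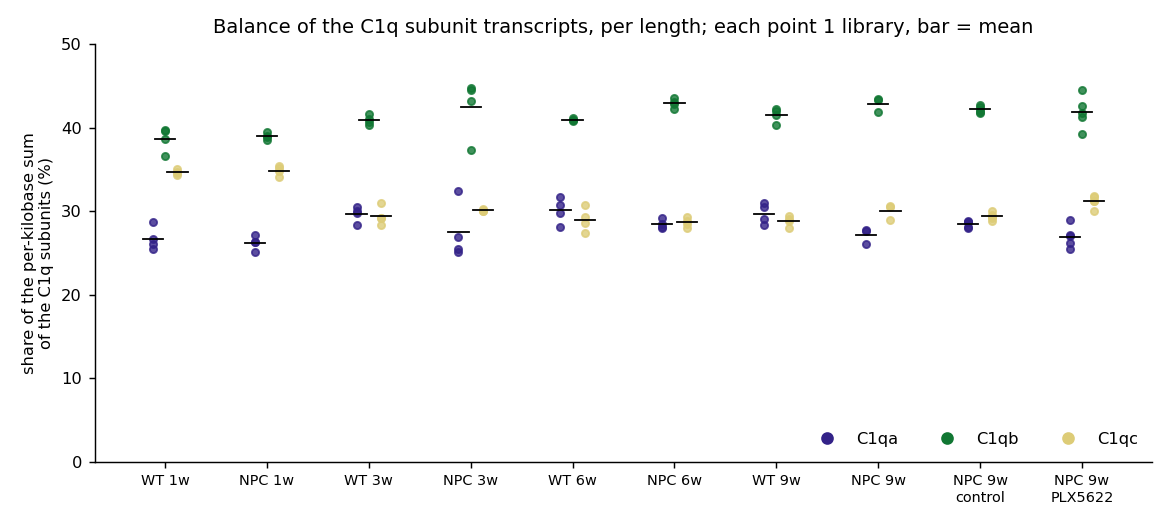
Share of each C1q chain in the summed per-kilobase level of C1qa, C1qb and C1qc (%), by group. Points are libraries and bars group means. C1qc is at 34.1 to 35.4% in the 1-week libraries and at 27.4 to 31.8% in all others.

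C4b encodes complement C4, the protein that the C1 complex cleaves before C2. The WT libraries had 221.2, 211.5, 182 and 265.7 normalized counts at 3 weeks and the NPC libraries 730.2, 1497, 517.4 and 1516. All NPC libraries were above all WT libraries at that age. The change was 4.40-fold (1.99 to 9.70, limma adjusted p = 0.00664), and 5.39-fold without NPC replicate C. At 6 weeks the NPC libraries had 1296, 1565, 1288 and 628.9 and the WT libraries 54.1, 683.3, 226.6 and 292.1. WT replicate B lay above NPC replicate D, so the groups overlapped. The change was 5.06-fold (2.29 to 11.2, limma adjusted p = 0.00398), and 3.16-fold without WT replicate A, the lowest library (limma adjusted p = 0.03). Without NPC replicates B and C it was 4.03-fold (limma adjusted p = 0.0929). At 9 weeks the NPC libraries had 2046, 1301 and 1150 and the WT libraries 695.2, 587.4, 431.6 and 153.1.

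The C4b groups of 9 weeks did not overlap, and the change was 3.57-fold (1.52 to 8.40, limma adjusted p = 0.0309). This call was lost without WT replicate D or C (limma adjusted p = 0.134 and 0.052) and without NPC replicate A, B or C (0.146, 0.0634 and 0.0503). It was also lost with the replicate block (0.108), although letters did not pair the samples at that age, and with the astrocyte covariate (0.0559). At 1 week the change was 1.81-fold (0.82 to 4.00, limma adjusted p = 0.622). C4b is uncertain to a small extent because of its near copy C4a: 8.26% of the windows of 150 bases along the longest C4b transcript occur in a C4a transcript. C4a itself had a mean of 43.4 ± 14.8 in NPC at 9 weeks and lower means in the other untreated groups.

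C2 encodes the protease that joins cleaved C4 to form the enzyme acting on C3. It showed the widest separation of the 8 genes between genotypes. At 1 week the WT libraries had 145.8, 265, 374.4 and 758.7 normalized counts and the NPC libraries 1351, 751.8, 784.7 and 1298. The groups overlapped through WT replicate D, and the change of 3.11-fold (1.53 to 6.32) missed the threshold (limma adjusted p = 0.11). It passed without WT replicate D, at 4.11-fold (limma adjusted p = 0.0388). At 3 weeks the WT libraries had 10.3, 21.3, 43.7 and 40.3 and the NPC libraries 582.7, 1178, 709.8 and 935.5. At 6 weeks they had 4.33, 30.5, 23.0 and 23.7 in WT and 1017, 1358, 1609 and 551.7 in NPC.

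At 9 weeks the C2 values were 51.1, 29.3, 29.8 and 17.6 in WT and 1055, 1250 and 1236 in NPC. From 3 weeks on the lowest untreated NPC library, at 551.7, stood far above the highest WT library, at 51.1. The changes were 31.5-fold at 3 weeks (15.5 to 64.0, limma adjusted p = 3.43e-08), 59.3-fold at 6 weeks (29.2 to 120.6, limma adjusted p = 1.14e-09) and 38.2-fold at 9 weeks (17.8 to 82.2, limma adjusted p = 2.59e-08). The change of 3 weeks was 33.1-fold without NPC replicate C. These folds compare means of log2(value + 1), and the added 1 makes them smaller than without it where WT values are this low.

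The C2 difference opened between 1 and 3 weeks. In WT the mean went from 386 ± 265 to 28.9 ± 15.8 (SD, n = 4 each), and C2 fell by 3.64 on the log2 scale (limma adjusted p = 1.66e-06). In NPC the means were 1047 ± 322 and 851.6 ± 262, with a log2 change of -0.30 (limma adjusted p = 0.709). The change between genotypes was larger at 3 weeks than at 1 week by 3.34 on the log2 scale (limma adjusted p = 0.0154). Without WT replicate D of 1 week this difference was 2.93 (limma adjusted p = 0.0507). From 3 to 6 and 6 to 9 weeks the difference between genotypes moved by 0.91 and -0.63 (limma adjusted p = 0.617 and 1).

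Beside this, 6 of 7 markers of border-associated macrophages fell in WT from 1 to 3 weeks, where 34.1% of all genes changed in either direction. The summed level of the markers went from 4390 to 9133 down to 353 to 688. In NPC 3 of 7 fell, where 25% of all genes changed in either direction. The sum went from 7301 to 8384 down to 1156 to 1501, while C2 did not pass a test there. The part of these cells in the C2 values was not tested. In GENCODE M21 a readthrough gene model, Gm20547, shares 59.2% of the exon bases of C2. Zbtb12, on the opposite strand, shares 5.07% and reached at most 43.4 normalized counts, a level like that of C2 in WT from 3 weeks on but below that of 1 week. The library kit does not mark strand, so reads of the shared stretch cannot be told apart.

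C3 encodes the central component that all activation routes cleave. At 1 week the WT libraries had 81.6, 244, 290.2 and 216.6 normalized counts and the NPC libraries 285.9, 294.9, 274.1 and 455.1, with a change of 1.70-fold (0.72 to 4.01, limma adjusted p = 0.722). At 3 weeks the WT libraries had 195.4, 108.3, 42.6 and 48.0. The NPC libraries of that age had 394.9, 618 and 449.4 in replicates A, B and D and 35.1 in replicate C, which was the lowest of all 41 libraries. The change was 3.05-fold (1.29 to 7.20, limma adjusted p = 0.0481), a borderline call that was lost in 30 of 43 alternatives, for example without WT replicate C or D of 3 weeks (0.148 and 0.123). Without NPC replicate C it was 5.82-fold (limma adjusted p = 2.17e-04). Leaving out NPC replicate A, B or D instead gave limma adjusted p of 0.0929, 0.162 and 0.118.

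At 6 weeks the C3 values were 62.8, 108.6, 69.6 and 101.3 in WT and 1101, 1105, 679.8 and 527.3 in NPC. At 9 weeks they were 139, 107.9, 132.9 and 36.0 in WT and 1187, 1084 and 1203 in NPC. The genotypes did not overlap at either age. The changes were 9.65-fold (4.09 to 22.8, limma adjusted p = 2.64e-04) and 12.4-fold (4.92 to 31.4, limma adjusted p = 1.55e-04), and both held in all 44 and 43 alternatives. Without NPC replicates B and C of 6 weeks the change of that age was 9.06-fold. From 3 to 6 weeks C3 in NPC had a log2 change of 1.70 that did not pass (limma adjusted p = 0.312) and was 0.76 without NPC replicate C of 3 weeks. The difference between genotypes did not pass a test of change after 3 weeks (log2 1.66 from 3 to 6 weeks, limma adjusted p = 0.577).

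The C3 promoter is shown because C3 and C3ar1, its receptor gene, both separated the genotypes. The 250 bases before the start lie at chr17:57228137-57228386 on the minus strand of GRCm38.p6 (RefSeq). Capitals mark TTGCNNAA on either strand, a form of the motif bound by C/EBP factors, which act in myeloid cells.
C3: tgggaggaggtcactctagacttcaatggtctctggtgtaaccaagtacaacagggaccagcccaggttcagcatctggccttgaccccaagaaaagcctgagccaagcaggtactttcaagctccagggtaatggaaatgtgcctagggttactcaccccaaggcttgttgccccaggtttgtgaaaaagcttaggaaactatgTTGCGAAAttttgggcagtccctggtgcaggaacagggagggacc
The 1 match lay 45 bases before the start, and 9.57% of all windows held at least 1. GAGGAA had no match here.

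C3ar1 encodes the receptor for the small C3 fragment, C3a. It was the most abundant of the members after the C1q chains. The WT libraries of all ages had between 8545 and 13852 normalized counts, with a median of 11339, and the untreated NPC libraries between 13880 and 33548, with a median of 19732. Every NPC library lay above every WT library. At 1 week the means were 15590 ± 1320 in NPC and 11350 ± 1100 in WT (SD, n = 4 each), a change of 1.38-fold (1.12 to 1.69) that missed the threshold (limma adjusted p = 0.121). It passed without NPC replicate C of 3 weeks (limma adjusted p = 0.0107). C3ar1 was 2.08-fold higher at 3 weeks (1.70 to 2.55, limma adjusted p = 4.37e-06), 1.78-fold at 6 weeks (1.45 to 2.18, limma adjusted p = 1.06e-04) and 1.94-fold at 9 weeks (1.56 to 2.41, limma adjusted p = 3.79e-05).

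NPC replicate C of 3 weeks had 33548 of C3ar1 against 18275 to 19847 in the rest of its group, and without it the change was 1.81-fold. In NPC mice C3ar1 rose 1.42-fold from 1 to 3 weeks (limma adjusted p = 0.00891). That step was 1.24-fold without NPC replicate C of 3 weeks (limma adjusted p = 0.042). It was lost when libraries were rescaled to the same total (0.0521) or the fit held only those groups (0.145). The level in WT stayed within a narrow range, with group means from 10640 to 13040.

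C5ar1 encodes the receptor for C5a, the small fragment of C5. Of the members it was the least tied to genotype. At 1 week the means were 1963 ± 302 in NPC and 2325 ± 79.9 in WT (SD, n = 4 each). In WT it fell to 1266 ± 174 at 3 weeks, a log2 change of -0.89 (limma adjusted p = 0.0112), and the WT means of 6 and 9 weeks were 1712 ± 404 and 2370 ± 375. The WT libraries of 3 weeks had 1186, 1186, 1166 and 1526 and those of 1 week 2207 to 2383, with no overlap. The NPC libraries of 3 weeks had 1216, 2210, 3492 and 1086. They spread widely around the WT values, and the change of 1.42-fold (0.97 to 2.08) did not pass (limma adjusted p = 0.155). It passed without NPC replicate D (0.0371), and was 1.14-fold without replicate C. At 6 and 9 weeks the ratios of NPC to WT were 1.06 (0.73 to 1.55, limma adjusted p = 0.876) and 0.79 (0.52 to 1.19, limma adjusted p = 0.453).

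The promoters of both receptor genes are shown because these were the members whose values in the PLX5622 and control arms, described further on, did not overlap. They lie at chr6:122856158-122856407 and chr7:16259339-16259588, both on the minus strand of GRCm38.p6 (RefSeq). Capitals mark TGANTCA, the AP-1 motif, in C3ar1, and GAAANNGAA, a motif of interferon-responsive promoters, in C5ar1, each searched on either strand.
C3ar1: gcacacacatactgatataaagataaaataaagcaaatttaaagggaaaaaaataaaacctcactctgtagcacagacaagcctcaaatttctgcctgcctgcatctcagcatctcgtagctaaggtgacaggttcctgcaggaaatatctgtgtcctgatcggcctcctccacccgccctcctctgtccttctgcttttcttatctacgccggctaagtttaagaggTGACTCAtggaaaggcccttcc
C5ar1: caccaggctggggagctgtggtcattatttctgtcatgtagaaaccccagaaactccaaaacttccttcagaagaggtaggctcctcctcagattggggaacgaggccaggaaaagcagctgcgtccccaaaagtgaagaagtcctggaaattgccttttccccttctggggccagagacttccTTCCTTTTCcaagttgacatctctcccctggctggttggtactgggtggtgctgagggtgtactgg
The AP-1 match lay 22 bases before the start of C3ar1, and 6.73% of all windows held at least 1. The GAAANNGAA match lay 66 bases before the start of C5ar1, and 7.15% of all windows held at least 1. Neither promoter held GAGGAA or TTGCNNAA, and neither held the motif marked in the other.

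The other 45 complement genes of a fixed list were counted apart, and 25 of them were tested. Between NPC and WT, 0 passed at 1 week by limma, edgeR or DESeq2, with 1 at an unadjusted p under 0.05. By limma, 5 were higher and 1 lower at 3 weeks, beside 14.3% and 12.6% of all genes, so that share was near the background. At 6 weeks 6 were higher and 0 lower, beside 8.76% and 6.5% of all genes. At 9 weeks 7 were higher and 3 lower, beside 11.2% and 7.77%. In a fit without NPC replicate C, 5 were higher and 0 lower at 3 weeks, 1 of them at a limma adjusted p of 0.0499. The share of all genes in that fit is not given here, so this count is not set against a background. In the full fit the median log2 change of the 25 genes was -0.071, 0.25, 0.25 and 1.02 at 1, 3, 6 and 9 weeks. Cfb, the counterpart of C2 in the alternative pathway and its neighbour in the genome, was 2.63-fold higher at 3 weeks (limma adjusted p = 0.0339) 3.80-fold at 6 weeks (limma adjusted p = 0.00622) and 3.07-fold at 9 weeks (limma adjusted p = 0.0284). The regulator Cd59a, which blocks the membrane attack complex, rose 3.51-fold, 4.15-fold and 4.11-fold at 3, 6 and 9 weeks (limma adjusted p = 1.09e-04, 1.59e-05 and 4.23e-05). Without NPC replicate C of 3 weeks the changes of that age were 3.26-fold for Cfb and 3.38-fold for Cd59a (limma adjusted p = 0.0263 and 3.73e-04).

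Itgax, a subunit of complement receptor 4, was 3.10-fold higher at 6 weeks (1089 ± 226 to 3388 ± 700) and 4.65-fold at 9 weeks, with limma adjusted p of 4.95e-04 and 2.01e-05. Itgam, a subunit of complement receptor 3 that also served as the CD11b sorting marker, was lower at 3 weeks (63450 ± 4300 in WT, 41400 ± 15400 in NPC, limma adjusted p = 0.0123) and at 9 weeks (limma adjusted p = 0.0151). The call of 3 weeks was lost without NPC replicate C (limma adjusted p = 0.0631). Clu, a fluid-phase regulator that astrocytes also make, was 2.85-fold, 3.88-fold and 6.79-fold higher at 3, 6 and 9 weeks (limma adjusted p = 0.0392, 0.0126 and 9.49e-04), and 3.68-fold at 3 weeks without NPC replicate C (limma adjusted p = 0.0282). Gfap rose at the same ages, as given above, and its part in Clu was not tested.

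At 9 weeks Colec12, a scavenger receptor of the collectin family, was 2.13-fold higher (limma adjusted p = 0.00562) and C5ar2, the second receptor for C5a, was lower with 195.9 ± 94.7 against 383.3 ± 89.9 (limma adjusted p = 0.047). Among genes at low levels, the ficolin gene Fcna had means of 95.5 in NPC and 19.1 in WT at 3 weeks (limma adjusted p = 0.00454, and 0.00222 without NPC replicate C), and the properdin gene Cfp had 18.5 in NPC and 66.1 in WT at 9 weeks (limma adjusted p = 0.0169). Of the 7 genes of the terminal pathway in the list, 1 (C8g) was tested, and it did not pass at any age.

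**Figure D4:**
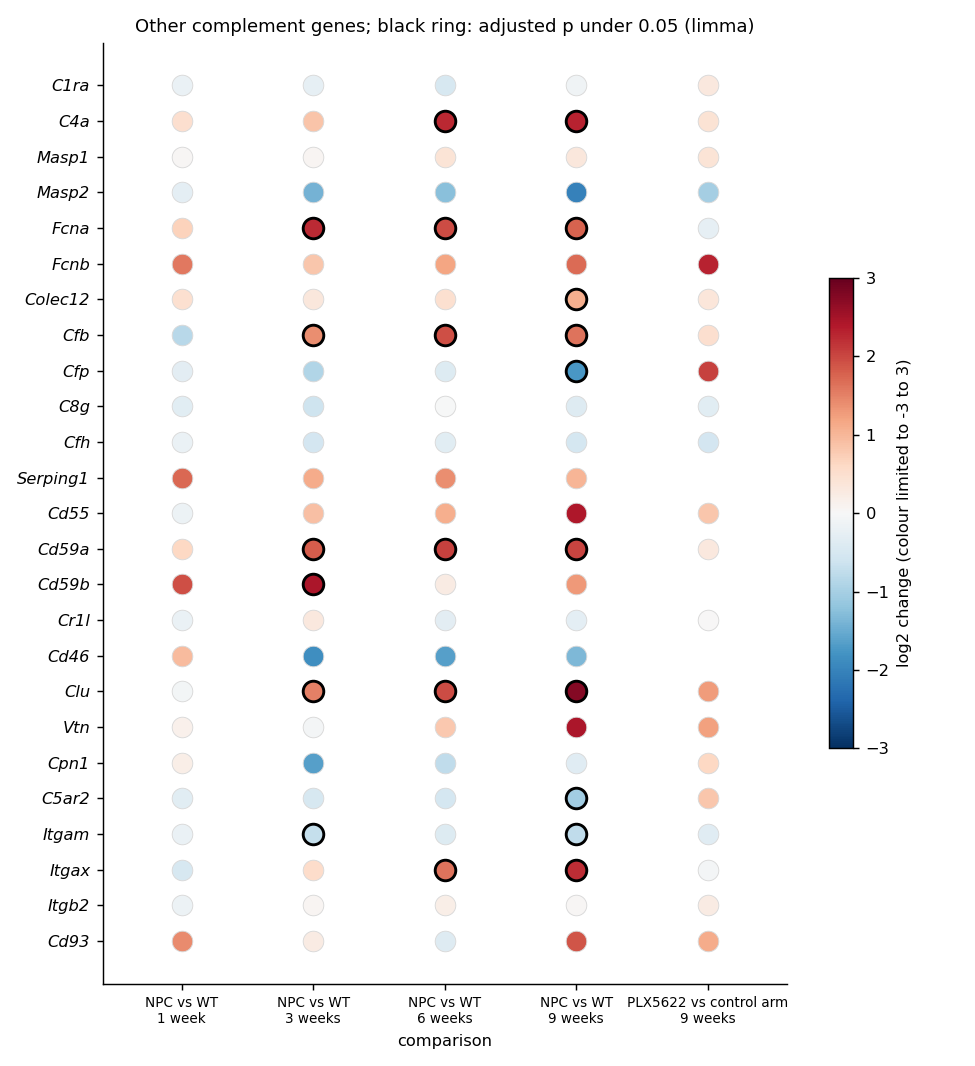
Log2 change (colour, limited to -3 to 3) of the 25 other complement genes tested, between NPC and WT at each age and between the PLX5622 and control arms. A black ring marks a limma adjusted p under 0.05, and empty places mark genes not tested in that fit. Rings are on Cd59a and Clu at 3, 6 and 9 weeks, and none is in the PLX5622 column.

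The control arm of 9 weeks was a further set of NPC mice. Against the untreated NPC mice of that age 0 of 8 members differed by limma, edgeR or DESeq2, with 0 at an unadjusted p under 0.05, and 0% of all 14312 genes were called by limma (598 at an unadjusted p under 0.05, 0 by edgeR and 1 by DESeq2). C3ar1 had 25290 ± 2360 in the control arm and 20570 ± 1180 in the untreated mice without overlap, and a change of 1.23-fold (0.99 to 1.52, limma adjusted p = 1). Against the 4 WT libraries of 9 weeks 7 of 8 members were higher in the control arm, all but C5ar1, with 11.6% of all genes higher and 10.4% lower. In the PLX5622 arm 7 of 8 were higher than the same WT libraries, all but C1qa (1.30-fold, limma adjusted p = 0.0849), with 16.6% of all genes higher and 15.6% lower. These comparisons share the WT libraries. C2 was 37.4-fold above WT in the control arm and 47.5-fold in the PLX5622 arm, and C3 16.2-fold and 16.4-fold.

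C1qb was 1.47-fold above WT in the control arm and 1.45-fold in the PLX5622 arm. C1qa in the control arm (1.39-fold, limma adjusted p = 0.0423) was lost without WT replicate B, C or D (0.145, 0.107 and 0.056) and without control replicate 1, 2 or 4 (0.112, 0.0952 and 0.0524). C1qa in the PLX5622 arm passed without NPC replicate C of 3 weeks (0.0228). C4b was 2.80-fold above WT in the control arm and 3.20-fold in the PLX5622 arm. It was lost in the control arm without WT replicate D (0.159) or control replicate 1 (0.0609), and in the PLX5622 arm without WT replicate D (0.0619).

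Between the PLX5622 and control arms 1 of 8 members changed, C5ar1, against 0.947% of all 12877 genes tested in either direction. The control libraries had 2028, 1909, 2195, 1757 and 1865 normalized counts of C5ar1 and the PLX5622 libraries 6226, 6898, 7314, 10173 and 2836. The groups did not overlap, and PLX5622 replicate 5 lay well below the other 4. The change was 3.18-fold (2.16 to 4.68, limma adjusted p = 0.0125). Without control replicate 5 the adjusted p was 0.0561, and without PLX5622 replicate 5 the change was 3.86-fold. C5ar1 was also 2.63-fold above WT in the PLX5622 arm (limma adjusted p = 9.74e-05), where the groups overlapped through replicate 5.

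C3ar1 had 37850, 32102, 40610, 47533 and 29431 in the PLX5622 libraries and 28907, 25412, 22604, 23897 and 25632 in the control libraries, again without overlap. The change of 1.47-fold (1.21 to 1.78) missed the threshold (limma adjusted p = 0.0691) and passed without PLX5622 replicate 5 (0.0183), in the fit of all 41 libraries (0.00898), with array weights (0.0113), with the replicate block (0.0431) and by DESeq2 (0.00255). Over the 41 libraries, with group means removed, the log2 values of the receptors had a correlation of 0.704. NPC replicate C of 3 weeks was the highest of its group for both (33548 of C3ar1 and 3492 of C5ar1). The correlation is not given without that library or for the arms alone.

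The other 6 members did not pass between the arms. The intervals of the change were 0.80 to 1.11-fold for C1qa, 0.84 to 1.15-fold for C1qb, 0.90 to 1.23-fold for C1qc, 0.83 to 1.57-fold for C4b, 0.88 to 1.83-fold for C2 and 0.74 to 1.39-fold for C3. C2 had 1907, 1441, 1090, 1596 and 1406 in the PLX5622 libraries and 1964, 1488, 1102, 832.4 and 758.4 in the control libraries. Of the other complement genes 22 were tested here. By limma and edgeR 0 passed, with 5 at an unadjusted limma p under 0.05, and DESeq2 called 3. Against WT, 7 of 25 were higher and 3 lower in the control arm, beside 11.6% and 10.4% of all genes, and 9 higher and 4 lower in the PLX5622 arm, beside 16.6% and 15.6%.

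Markers of other myeloid cells stood beside the receptor values. The summed level of 10 monocyte and neutrophil markers was 14248, 10019, 116271, 9812 and 1466 in PLX5622 replicates 1 to 5 and 717 to 6856 in the control libraries. Of the 10, 0 passed by limma or edgeR, with 1 at an unadjusted p under 0.05 by limma and 6 by edgeR, and DESeq2 called 3. Their median log2 change was 2.62, and no marker was at 0 in every library of an arm. Against the WT libraries of 9 weeks, 7 of the 10 were higher and 1 lower in the PLX5622 arm by limma (median log2 change 4.47). That stood beside 16.6% and 15.6% of all genes. In the control arm 1 was higher and 2 lower against WT, beside 11.6% and 10.4%. PLX5622 replicate 3 held 52584 of the neutrophil granule gene Ngp and 15914 of S100a9. Without that library C5ar1 was 3.05-fold higher (limma adjusted p = 0.0391). The highest C5ar1 and C3ar1 values were in replicate 4, whose marker sum was below that of replicates 1 to 3, and the lowest of both were in replicate 5, whose sum was the lowest of the arm. Control replicate 2, with a sum of 6856, had 1909 of C5ar1. The part of these cells in the receptor values was not tested further. The 7 border-associated macrophage markers summed to 1226 to 2834 in the PLX5622 arm and 890 to 1162 in the control arm, and 1 of 4 tested was higher. Of 8 microglia markers, 8 were lower than WT in the PLX5622 arm and 5 in the control arm.

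**Figure D5:**
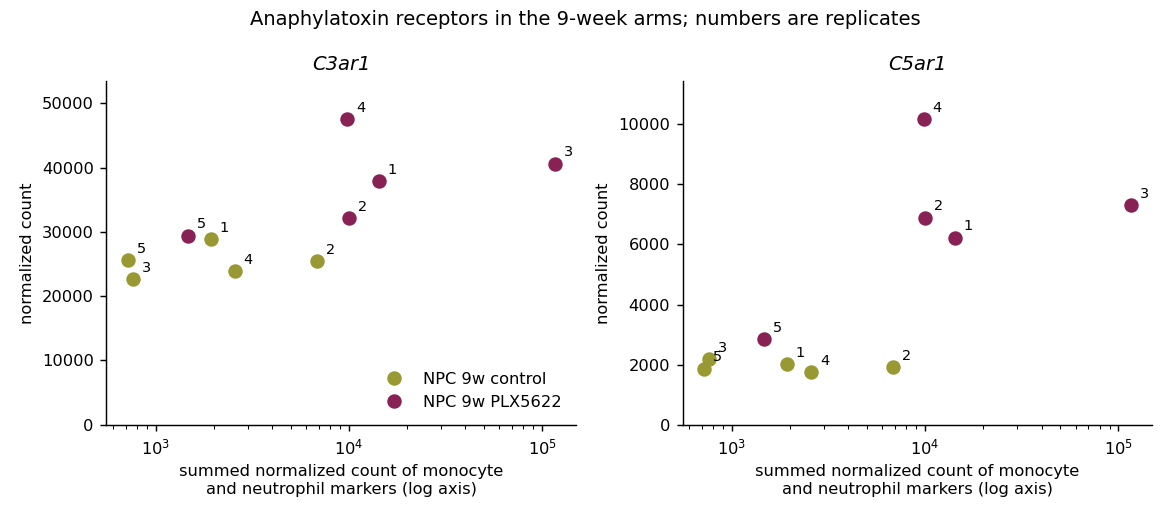
Normalized counts of C3ar1 and C5ar1 in the 5 control and 5 PLX5622 libraries of 9 weeks (y axes from 0) against the summed normalized count of 10 monocyte and neutrophil markers (log axis). Numbers are replicates. PLX5622 replicate 5 has the lowest marker sum of its arm (1466) and the lowest C5ar1 (2836), and replicate 3 has the highest sum (116271).

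The genes most like each member over the 41 libraries were listed over 9365 named genes whose mean reached 100, with the 8 members themselves left out, as a description. The libraries share genotype and age groups, so the correlation with group means removed is given beside each. Outside the members, the closest to C1qb was B2m, the light chain of MHC class I, at 0.931 overall and 0.809 within groups, and to C1qc it was Cyba, a subunit of the phagocyte oxidase, at 0.925 and 0.938. B2m also came first for C1qa among genes that are not members (0.886 and 0.880), below the correlation of C1qa with C1qb given above. The closest to C4b was the chemokine gene Ccl5 (0.908 and 0.776), ahead of H2-K1 (0.885 and 0.622).

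The closest to C2 was Hpse, the heparanase gene, at 0.969 overall and 0.494 within groups, followed by Uap1l1 and the lysosomal phosphatase gene Acp5. Slfn5 came closest to C3 (0.946 and 0.696), and Lyz2, the lysozyme of myeloid cells, was among its top 3 (0.936 and 0.699). C3ar1 was most like Eif1a (0.942 and 0.668), and C5ar1 was most like Tpst1, at 0.867 and 0.684. Among the members themselves, C2 and C3 had a correlation of 0.805 overall but 0.209 within groups, and C3 and C1qa 0.344 overall and -0.46 within groups. NPC replicate C of 3 weeks had the highest C1qa (265093) and the lowest C3 (35.1) of all 41 libraries. The correlation of C3 and C1qa is not given without it, so its negative value may rest on that library. Values that rose with the disease groups thus did not all follow each other among libraries of the same group.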

How the data were processed

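The authors' deposited table gives normalized counts of 41 libraries. Per the labels' protocols, cDNA was made from RNA of sorted cells with a SMART-seq v4 kit and sequenced as 150 bp paired reads. The submitters' processing notes name FastQC 0.11.4, STAR 2.5.1b, DESeq2 and the build mm9. The deposited signal values behave as whole gene counts divided by 1 size factor per library: dividing by each library's smallest step gave whole reads for all values (largest relative error 6.9e-15, tolerance 1e-06). Such scaling removes depth but not differences in cell mixture. Libraries had a median of 30481422 recovered reads, and the C2 value of a library rested on as few as 4.

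Values were tested as log2(value + 1) with limma 3.58.1 (trend and robust options, R 4.3.3), keeping a gene where 3 or more libraries of the fit reached 10 normalized counts, with Benjamini-Hochberg adjustment over all genes tested and a threshold of 0.05. Separate fits held the 31 libraries of the time course (14046 genes), the 10 of the PLX5622 and control arms (12877) and all 41 (14312). All 8 members passed the filter. Count tests with edgeR 4.0.16 and DESeq2 1.42.0 (run on the whole reads recovered), other filters, scalings, weights, a covariate, the replicate block and leave-one-out fits were alternatives. The fits were tested on simulated data. Exon lengths were taken from GENCODE M21. The series' design text gives 3-4 mice per age group and 5 per arm, so libraries were taken as separate mice. Motif letters and the 250-base window were settled after a first search had been seen, and the promoters come from RefSeq (GRCm38.p6).

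Replicate letters paired WT and NPC only at 1 week, where same-letter deviations had correlations of 0.155 to 0.193 in all 4 pairs. No call changed there with the block. The genes alike in pattern are the 3 of highest Pearson correlation per member, and other complement genes were named by smallest adjusted p with a mean of at least 100 in the higher group, or by their level alone (Fcna, Cfp). The members and lists were chosen with earlier results of these data known.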

Additional observations from a re-analysis of the deposited data

Results flagged for a closer look

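In groups of 4 or 5 libraries the highest or lowest library was set against the gap to its nearest neighbour. Of 72 tests of a member in a group, 10 had a gap beyond the 95% critical value of Dixon's test, and chance gives about 1 in 20. NPC replicate C of 3 weeks was high for C1qa (265093, others up to 133405) and for C3ar1 (33547.5, others up to 19847). PLX5622 replicate 4 was low for C1qa (124523, others from 143430). NPC replicate A of 1 week was high for C4b (864.91, others up to 380.6) and C5ar1 (2412.92, others up to 1850). NPC replicate D of 1 week was high for C3 (455.13, others up to 294.9). WT replicate D of 9 weeks was low for C3ar1 (8545.08, others from 11242). In C5ar1, WT replicate B of 1 week was low (2206.84), and WT replicate D of 3 weeks (1526.2) and WT replicate A of 9 weeks (2929.08) were high.

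The change of C2 between genotypes differed between 3 weeks and 1 week by 3.34 on the log2 scale in a test of the difference itself (limma adjusted p = 0.0154). It was the 1 member for which this test passed.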

How the results depend on the processing

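The report gives 59 changes of members, 37 of them called. Over 2498 fits of the 59 under an alternative, 2360 kept direction and side of the threshold. In the rest 87 lost the call, 33 gained it and 18 changed sign, and no called change turned its sign. Many of the fits left out a library of a group outside the comparison. Such a fit leaves the change itself as it was and moves only the shared spread, so the total kept is not a count of independent checks. For C2, C3 and C3ar1 at 6 and 9 weeks no alternative ended the call.

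The number of members called at 1 week went from 0 to 1 with a pseudocount of 10, quantile normalization, array weights, DESeq2 or a fit limited to the groups compared, and was 0 to 1 when each library was left out in turn. At 3 weeks it went from 7 to 4 in the limited fit and was 5 to 7 with libraries left out. At 6 weeks it went from 5 to 3 without NPC replicates B and C, and was 4 to 7 with libraries left out. At 9 weeks it was 3 to 6 with libraries left out. For the difference between 3 weeks and 1 week it was 2 with array weights and 0 to 2 with libraries left out. Array weights gave 1 in WT from 3 to 6 weeks, 1 in WT from 6 to 9 weeks and 6 in NPC from 1 to 3 weeks, where the limited fit gave 1. Between the arms it was 2 with array weights, DESeq2, all 41 libraries or the replicate block, and 0 to 2 with libraries left out. Causes were not tested. Apart from the PLX5622 comparison, the replicate block moved no count of calls by over 1.5 times.

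The 18 sign changes were of uncalled changes. C5ar1 at 6 weeks was -0.0651 with array weights, -0.175 with the astrocyte covariate and -0.26 without NPC replicates B and C, and -0.26 to 0.298 over all alternatives, with -0.109 and -0.0329 without NPC replicate B or WT replicate C. Between the arms C1qb was 0.0682 with quantile normalization, 0.0589 with array weights, and -0.0836 to 0.0331 when each library was left out, above 0 without control replicate 1 or 2 (0.0331 and 0.0168) or PLX5622 replicate 2 (0.0183). C1qc was -0.137 with the astrocyte covariate. C3 was -0.00527 rescaled to the same total, -0.0106 with quantile normalization and -0.363 with the covariate, and -0.1 to 0.143 when each library was left out, below 0 without control replicate 4 or 5 (-0.0148 and -0.1) or PLX5622 replicate 1 or 3 (-0.0971 and -0.0756).

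Rescaling to the same total moved the median of all genes at 3 weeks from -0.038 to -0.17 and the split of calls from 2006 higher and 1771 lower to 1503 and 2438. At 9 weeks the split went from 1574 and 1091 to 1421 and 1491, in NPC from 1 to 3 weeks from 1710 and 1799 to 1033 and 3125, and in WT from 2203 and 2583 to 1577 and 3289. Against WT it went from 1660 and 1487 to 1435 and 1965 in the control arm and from 2376 and 2234 to 1905 and 2858 in the PLX5622 arm. DESeq2 called 606 genes between the arms against 122 by limma and 372 at 1 week against 204.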
